A study of Mus musculus with 4 samples.

Results

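Immediate early response genes are the first genes that a cell transcribes after a stimulus. The 10 examined here were Fos, Fosb, Jun, Junb, Egr1, Ier2, Ier3, Atf3, Dusp1 and Zfp36, taken from a list of transcription factors and feedback genes and read from every probe set named for 1 of them alone. They had 11 probe sets of 45037 on the array, 2 for Jun and 1 for each other gene, and 10 genes of the 18193 named. RNA came from small intestinal epithelial cells of healthy C57BL/6J mice of 10 weeks, kept specific pathogen-free, and each of 4 arrays held 1 sample. Of these, 2 were labelled AP-1B+/- (heterozygous) and 2 AP-1B-/- (knockout), so no array without a deleted allele was compared. The dissected intestine lay on ice for 20 min in a buffered salt solution with 30 mM EDTA, after which the epithelium was teased off with a fine needle, a procedure shared by both groups. The labels do not give the deleted part of the gene, the cells in which it was deleted, whether animals were pooled, or whether each array stands for its own animal, and p-values here therefore speak of differences among the samples themselves, technical ones included.

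Growth factors, stress and physical handling switch such genes on within minutes, without new protein synthesis, through MAP kinases that phosphorylate factors already bound to their promoters. FOS and JUN proteins pair to form the transcription factor AP-1, which shares nothing but its name with the AP-1 clathrin adaptor whose epithelial form, AP-1B, is named in the labels. The products DUSP1 and ZFP36 close the loop, the first by dephosphorylating MAP kinases and the second by speeding the decay of short-lived mRNAs. Because the response starts while tissue is being taken apart, these transcripts are widely read as a sign of dissociation in isolated cells. Each label held arrays prepared by the same protocol, and no untreated tissue was measured, so a level shows no induction by itself.

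The promoters below belong to Fos, Dusp1, Ier3 and Zfp36. On the deposited values, the first 3 were higher on knockout 1 and heterozygous 2 than on both other arrays. Zfp36 was lower on that pair. Among all probe sets kept by a filter on mean signal, 52.7% were higher and 11.7% lower in that way. Fos lost this division when every array was given the same distribution. Sequences are RefSeq's, of build GRCm38.p6, and were found for 8 of the 10 members (Fos, Fosb, Jun, Junb, Ier3, Atf3, Dusp1 and Zfp36). Each runs 5′ to 3′ along the gene's strand over the 250 bases before its annotated start. Capitals mark matches to the letters TGACG (the core of the cyclic AMP response element) or TGACGTCA (the full element) on both strands, TATAA on the gene's strand, or the CArG box bound by serum response factor.
Fos, chr12:85473640-85473889, plus strand: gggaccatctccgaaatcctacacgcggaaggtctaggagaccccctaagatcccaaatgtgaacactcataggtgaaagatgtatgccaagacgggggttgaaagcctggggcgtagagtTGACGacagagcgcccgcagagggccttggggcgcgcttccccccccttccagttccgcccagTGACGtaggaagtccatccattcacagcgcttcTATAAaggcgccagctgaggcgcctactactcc
Dusp1, chr17:26508473-26508722, minus strand: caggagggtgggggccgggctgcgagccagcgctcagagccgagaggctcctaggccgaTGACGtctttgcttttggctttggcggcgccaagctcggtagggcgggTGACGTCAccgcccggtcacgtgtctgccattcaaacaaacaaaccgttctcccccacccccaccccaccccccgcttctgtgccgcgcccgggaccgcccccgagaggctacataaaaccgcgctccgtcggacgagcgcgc
Ier3, chr17:35821463-35821712, plus strand: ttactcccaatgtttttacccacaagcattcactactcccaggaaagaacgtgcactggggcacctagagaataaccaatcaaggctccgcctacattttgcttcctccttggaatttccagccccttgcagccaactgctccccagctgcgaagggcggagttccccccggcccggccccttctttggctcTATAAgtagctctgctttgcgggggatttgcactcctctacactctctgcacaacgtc
Zfp36, chr7:28379229-28379478, minus strand: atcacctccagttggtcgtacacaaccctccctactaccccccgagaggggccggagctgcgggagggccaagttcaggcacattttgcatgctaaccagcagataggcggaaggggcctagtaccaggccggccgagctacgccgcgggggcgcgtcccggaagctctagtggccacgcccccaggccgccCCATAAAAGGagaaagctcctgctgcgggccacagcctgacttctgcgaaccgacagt

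The core TGACG lay in the window of 5 of the 8 members, Fos, Fosb, Junb, Atf3 and Dusp1, and in 17.8% of the 32851 promoter windows of that length, which include several starts of some genes and non-coding genes. The Fos window held it at -129 and -66, counted from the start, and TATAA at -33. In the Dusp1 window the full element TGACGTCA stood at -143, with another core at -191, and overlaps the shorter motif. The full element was found in 1.55% of windows. Among the 8 windows a CArG box was found in that of Zfp36 alone, at -58, and in 1.47% of all windows. Bases further upstream were not searched, and no sequence was found for Egr1 and Ier2. TATAA occurred in the windows of Fos and Ier3 and in 16.0% of all. TGANTCA, which AP-1 binds, and GCGTGGGCG, which EGR1 binds, matched none of the 8 windows on either strand, against 6.75% and 0.536% of all windows. GGGCGG, the GC box, which is not capitalised, was in 7 of the 8 and in 32.7% of all. These matches describe letters in a window and say nothing of binding in these cells.

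Values are MAS5 signals, which summarise the short probes of a probe set after background correction, in multiples of the array median, and signals of different probe sets are not comparable as levels. Ap1m2, which encodes the medium subunit of AP-1B, checks the labels. Its signals were 19.9 and 4.33 on heterozygous 1 and 2, and 2.49 and 22.3 on knockout 1 and 2. Its signal thus went against the labels of the arrays labelled heterozygous 2 and knockout 2, and a probe set outside the deleted part would check nothing. The 75th percentile of signal also divided the arrays that way, at 5.54 and 5.57 on heterozygous 2 and knockout 1 against 4.13 and 4.27 on the others. Xist, expressed from the inactive X, was high on both replicate 2 arrays (30.2 and 60.1, against 0.349 and 0.070), and the Y-linked Eif2s3y on both replicate 1 arrays, so replicate number and sex pattern cannot be told apart. Directions below follow the labels unless the order of Ap1m2 is named.

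No immediate early gene passed the test between the labels. Of the 10 probe sets kept by a filter on mean signal, 0 passed an adjusted p of 0.05 by limma with Benjamini-Hochberg adjustment over all kept probe sets, where 0% of 22519 did, and each had an adjusted p of 0.999868. None of the 10 had an unadjusted p below 0.05 (0 of 10, against 0.755% of all). Fosb was not kept, since its mean lay below the filter. The log2 differences (knockout minus heterozygous, on the scale of log2(value + 0.321), which understates dim probe sets) ran from -0.52 to 0.54 (standard errors 0.48 to 0.63). Their median was -0.14 beside 0.0055 for all kept probe sets, and 3 of the 10 were positive, as were 50.7% of all. The median size of the difference was 0.28 for the members and 0.22 for all. On the deposited values, only the Jun probe sets did not overlap between labels. They were lower on the knockout arrays, 2 of 10 against 10.7% of all probe sets, with 0 of 10 above against 6.56%.

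**Figure D1:**
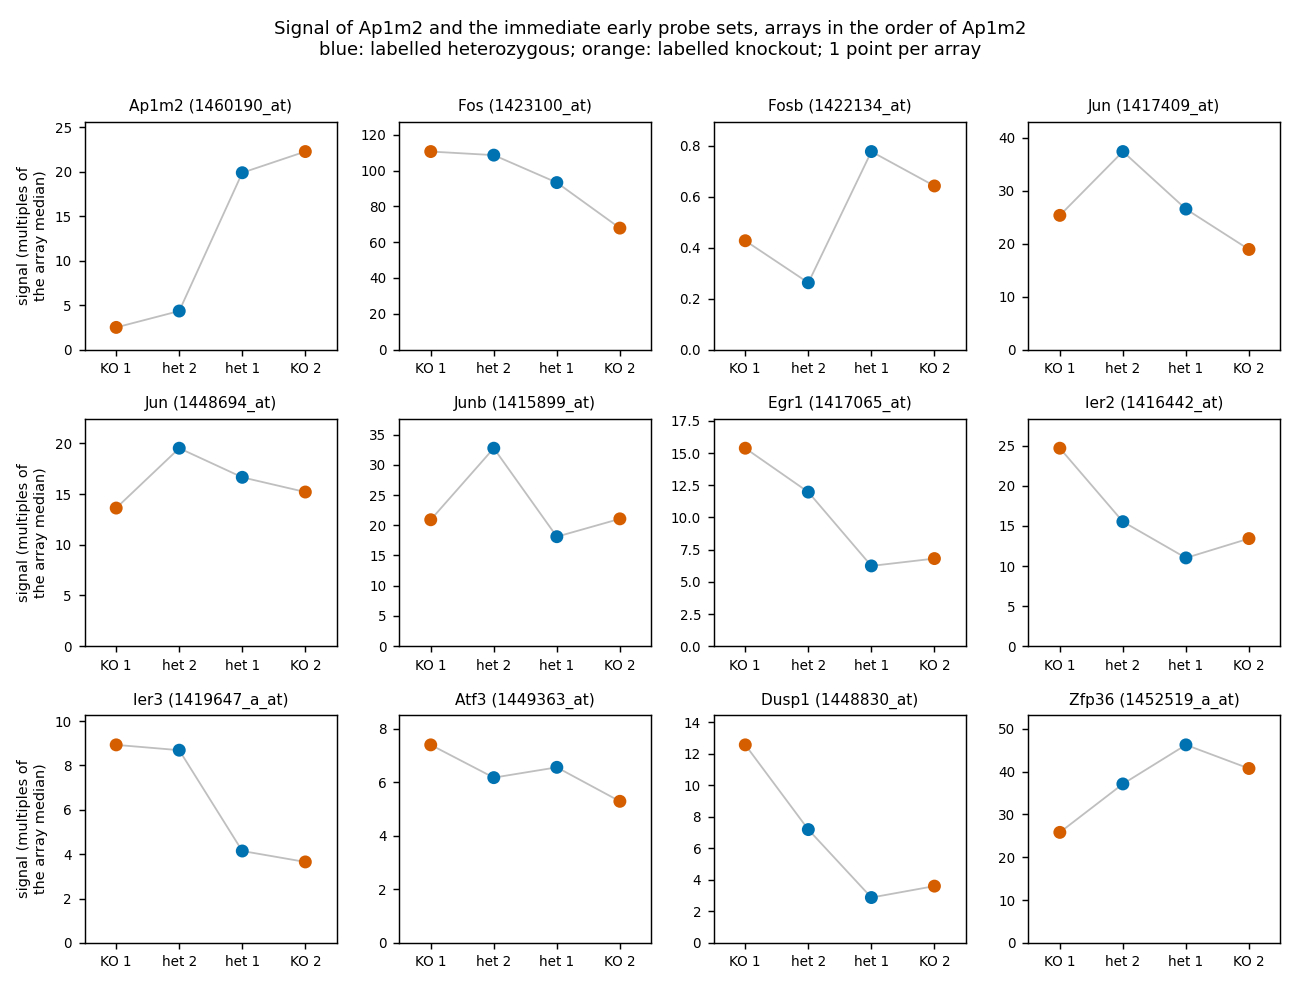
Signal in multiples of the array median (vertical axes, linear, from 0) of Ap1m2 and the 11 immediate early probe sets, 1 point per array, with arrays in the order of their Ap1m2 signal and grey lines only to guide the eye. Blue points are labelled heterozygous and orange points knockout. Dusp1 went from 12.6 on knockout 1 to 2.88 on heterozygous 1, and Zfp36 from 25.8 to 46.3.

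Fos, the founding partner of JUN in AP-1, gave signals of 93.3 and 109 on heterozygous 1 and 2, and of 111 and 67.8 on knockout 1 and 2. The lowest and the highest array were both labelled knockout, and the labels overlapped. Their means were 101 ± 10.8 for heterozygous and 89.2 ± 30.2 for knockout (SD, n = 2 each), or -0.22 as a log2 difference (standard error 0.50). Every array had Fos far above its median. Fosb, a paralog of Fos with the same dimerisation domain, had 0.777, 0.262, 0.427 and 0.642 in the same order of arrays. All of these lie below the array median, so no difference is read from them, and no detection call was used that would show whether the transcript was present.

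Jun, the other partner in AP-1, was measured by 2 probe sets. For 1417409_at the heterozygous arrays read 26.5 and 37.3 (replicates 1 and 2) and the knockout arrays 25.3 and 18.9. Both knockout arrays lay below both heterozygous arrays, by a margin of 26.5 to 25.3 at the nearest. Means of 31.9 ± 7.67 and 22.1 ± 4.55 (SD, n = 2 each) differed by -0.52 in log2 (standard error 0.56). The second probe set, 1448694_at, read 16.6, 19.5, 13.6 and 15.2 in that order, again with no overlap. Its log2 difference was -0.32 (standard error 0.54), so both probe sets of Jun lay on the same side while neither difference exceeded its standard error. Junb, a paralog that often restrains JUN, stood at 18.1, 32.7, 20.9 and 21.1, where heterozygous 2 was 1.81 times heterozygous 1 and the knockout arrays fell between them. The knockout arrays were nearly equal for it (21.0 ± 0.110 against 25.4 ± 10.3 for heterozygous, SD, n = 2 each), for -0.21 in log2 (standard error 0.57).

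Egr1, a zinc-finger factor downstream of MAP kinase signalling, had signals of 6.24 and 12.0 on heterozygous 1 and 2, and of 15.4 and 6.81 on knockout 1 and 2. Each label held 1 high and 1 low array, 1.92 times apart among heterozygous and 2.26 times among knockout arrays. By label the log2 difference was 0.24 (standard error 0.58). Atf3, a stress-induced factor of the same basic leucine zipper class as FOS and JUN, varied least among the members kept, with 6.56, 6.18, 7.40 and 5.29 and a highest value 1.40 times the lowest. Its label means were nearly the same, 6.37 ± 0.272 and 6.35 ± 1.49 (SD, n = 2 each), or -0.023 in log2 (standard error 0.48).

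Ier2, a nuclear protein of the early response, measured 11.0 and 15.5 on heterozygous 1 and 2, and 24.7 and 13.4 on knockout 1 and 2. Knockout 1 stood apart, at 1.59 times the next array, and the labels overlapped (log2 difference 0.47, standard error 0.57). Ier3, which modulates cell survival under stress, measured 4.14, 8.69, 8.93 and 3.65. Here the arrays formed a high and a low pair with 1 of either label in each, and the label means were 6.42 ± 3.21 and 6.29 ± 3.73 (SD, n = 2 each), or -0.065 in log2 (standard error 0.56).

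Dusp1, the phosphatase that switches off MAP kinases, ranged most widely among members kept, with 2.88 and 7.19 on heterozygous 1 and 2, and 12.6 and 3.60 on knockout 1 and 2. The highest value was 4.37 times the lowest, but the labels overlapped, and means of 5.03 ± 3.05 and 8.09 ± 6.34 (SD, n = 2 each) differed by 0.54 in log2 (standard error 0.63). Zfp36, tristetraprolin, which binds AU-rich mRNAs, had 46.3, 37.1, 25.8 and 40.8 in the same order. Knockout 1 was lowest for it while highest for Dusp1, and heterozygous 1 was the reverse. By label it differed by -0.35 in log2 (standard error 0.55).

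**Figure D2:**
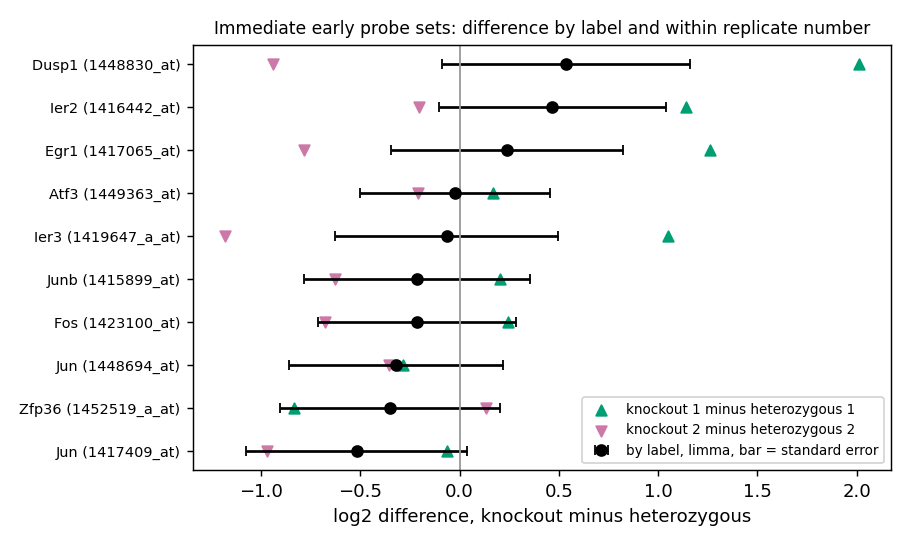
Log2 difference, knockout minus heterozygous (horizontal axis), of the 10 kept immediate early probe sets, by label from limma (black points, bars are standard errors) and within each replicate number (green triangles for replicate 1, pink for replicate 2). For Dusp1 the replicate 1 arrays differed by 2.01 and the replicate 2 arrays by -0.94.

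The sign of the label difference rested on single arrays for 6 of the genes. Egr1 turned to -0.22 without heterozygous 1 and -0.33 without knockout 1, and Dusp1 to -0.079 and -0.32 with the same arrays left out. Ier3 turned to 0.44 without heterozygous 2 and 0.54 without knockout 2. Junb became 0.21 without heterozygous 2, Fos became 0.14 without knockout 2, and Atf3 became 0.019 without heterozygous 1 and 0.21 without knockout 2. The 2 Jun probe sets, Ier2 and Zfp36 kept their sign with any 1 array left out, which for Jun follows from groups that do not overlap. Without knockout 1, however, Ier2 went from 0.47 to 0.036 and Zfp36 from -0.35 to -0.024. The members' median was -0.27 without heterozygous 1, 0.072 without heterozygous 2, -0.29 without knockout 1 and 0.17 without knockout 2. Over all probe sets 24 passed the adjusted threshold by limma without knockout 1 and 240 without knockout 2, none of them an immediate early probe set. Without knockout 2, Dusp1 differed by 1.395 in log2. In these fits 1 label holds a lone array, which is assumed to vary as the other label's arrays do.

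Within replicate 1, whose arrays both had high Eif2s3y, knockout 1 minus heterozygous 1 was 2.01 for Dusp1, 1.26 for Egr1, 1.14 for Ier2 and 1.05 for Ier3 on the log2 scale. Within replicate 2 the same difference was -0.94, -0.79, -0.21 and -1.18, so each of these 4 genes had opposite signs in the pairs. Fos, Junb and Atf3 had the same signs. Those are differences between single arrays and have no test. Knockout was above heterozygous at 7 of 10 members within replicate 1 and 1 of 10 within replicate 2. The shares of all kept probe sets were 68.8% and 24.8%, so most probe sets leaned that way. After quantile normalization, which gives every array the same distribution, the counts were 4 and 4 of 10, beside 51.9% and 48.4%. Zfp36 went the other way within both numbers on the deposited values, with -0.83 within replicate 1 and 0.13 within replicate 2. For Jun the difference was negative within both numbers, -0.065 and -0.97 for 1417409_at and -0.28 and -0.35 for 1448694_at.

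Arrays were also set in the order of their Ap1m2 signal, as a description without means or test, since Ap1m2 is itself a measured value. On the deposited values, 5 of the 10 probe sets (Fos, Egr1, Ier2, Ier3 and Dusp1) were higher on both arrays of lower Ap1m2, knockout 1 and heterozygous 2, than on both others. Over all kept probe sets the share was 52.7%, so the members' count was near the background. Zfp36 was lower on that pair, 1 of 10, against 11.7% of all. The difference in Ap1m2 went with the difference in the arrays' 75th percentile, and quantile normalization, which gives every array the same distribution, was therefore used as a second view. Egr1, Ier3 and Dusp1 then stayed above on that pair, 3 of 10 against 28.4% of all, and Jun (1448694_at) and Zfp36 lay below, 2 of 10 against 24.9%.

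Quantile-normalized log2 values show how large the remaining divisions were. Dusp1 had 1.82 and 2.69 on heterozygous 1 and 2, and 3.44 and 2.12 on knockout 1 and 2. Egr1 read 2.97, 3.37, 3.72 and 3.05, and Ier3 read 2.37, 2.94, 2.97 and 2.14. Each of these 3 genes thus kept its pair of high arrays, with a gap between the pairs that was narrowest for Egr1. Zfp36 read 5.82, 4.93, 4.47 and 5.63, the mirror image. Fos read 6.76, 6.50, 6.56 and 6.36, with heterozygous 1 now highest, so its place in the order of Ap1m2 was lost with the scaling. Ier2 also overlapped then in the order of Ap1m2, at 3.79, 3.71, 4.40 and 4.03. By label, both knockout arrays then lay above both heterozygous arrays for Ier2, unlike on the deposited values.

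**Figure D3:**
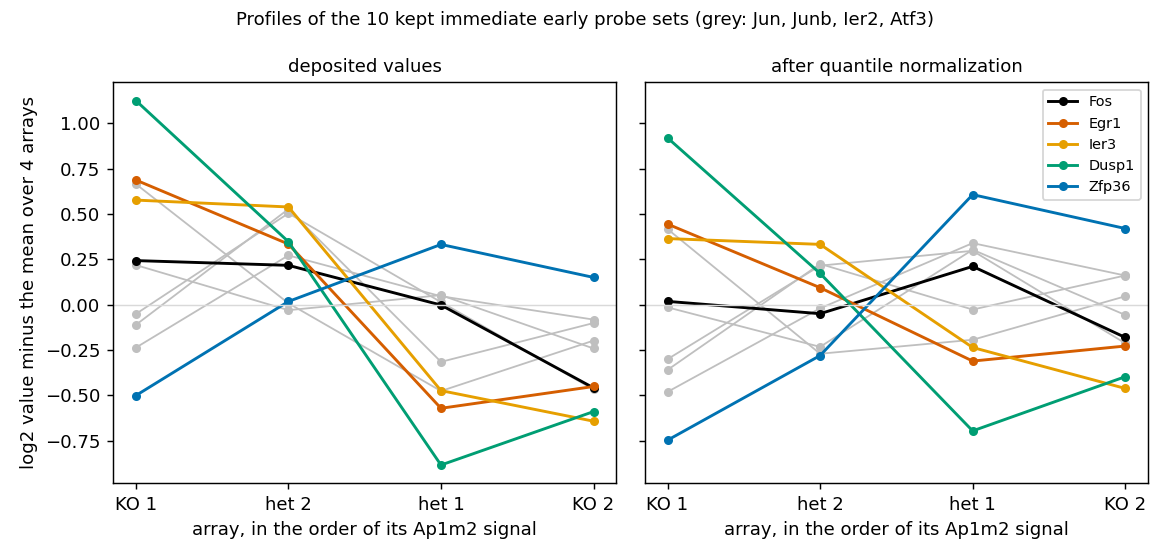
Log2 value minus its mean over the 4 arrays (vertical axis) for the 10 kept immediate early probe sets, with arrays in the order of their Ap1m2 signal, on the deposited values (left) and after quantile normalization (right). Egr1, Ier3 and Dusp1 keep both arrays of lower Ap1m2 above the others in both panels and Zfp36 keeps them below, while Fos divides the arrays so only on the left.

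Pairs of arrays were compared by how many probe sets lay 1 or more apart in log2 value, that is about 2-fold. Knockout 1 and heterozygous 1 differed so at 4 of the 10 (Egr1, Ier2, Ier3 and Dusp1), against 25.4% of all kept probe sets, and knockout 1 and knockout 2 at 3 (Egr1, Ier3 and Dusp1), against 23.6%. Heterozygous 2 and heterozygous 1 did at 2 (Ier3 and Dusp1), against 13.6%, and knockout 2 and heterozygous 2 at Ier3 alone, against 11.1%. No member was so far apart between knockout 2 and heterozygous 1 (3.28% of all) or between knockout 1 and heterozygous 2 (9.54%). The order of these counts follows that of all probe sets.

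The genes with the profile most like the members' median were sought among 10331 bright probe sets of other genes (mean signal at or above the 75th percentile), by the root mean square distance of centred log2 values over the 4 arrays. That profile was -0.16 and 0.30 on heterozygous 1 and 2, and 0.23 and -0.35 on knockout 1 and 2. The nearest were Dtnbp1 (6.51, 9.19, 8.84 and 5.69, distance 0.015), Abcd3 (distance 0.018), Oga (0.018), Golga5 (0.019) and Mon2 (0.019). The members themselves lay at a median distance of 0.29, from 0.11 for Fos to 0.59 for Dusp1, and 6097 of the 10331 probe sets lay nearer than that median. Most bright probe sets thus lay nearer to this profile than the median member did. A probe set that varied little among the arrays also counts as near, so nearness does not show that it followed the profile. The distances were taken on the deposited values, without quantile normalization.

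Other genes of the early response were read from a list of 47, each by its brightest probe set, of which 39 were kept. None passed the adjusted threshold and 1, Sgk1, had an unadjusted p under 0.05 by limma; 18 were higher and 21 lower on the arrays labelled knockout, with a median of -0.067. The labels did not overlap at 8 of the 39, 2 above and 6 below on the knockout arrays, beside 6.56% and 10.7% of all probe sets. Sgk1, a kinase induced by serum and glucocorticoids that regulates sodium transport, had 223 and 123 on heterozygous 1 and 2, and 20.5 and 131 on knockout 1 and 2 (log2 difference -1.66, standard error 0.74). Knockout 1 stood far below the rest, and the labels overlapped. Myc, the growth-promoting factor, had 5.41, 4.82, 17.2 and 6.12, higher on both arrays labelled knockout without overlap, with knockout 1 highest. Nfil3, a basic leucine zipper repressor, had 4.10, 4.36, 1.74 and 2.46, without overlap between labels, and the orphan nuclear receptor gene Nr4a2 had 3.30, 0.637, 3.54 and 2.63. Klf4, a factor of differentiated epithelium, had 127, 123, 96.5 and 112, Nfkbia, the inhibitor of NF-kappaB, had 113, 110, 88.2 and 90.4, and the growth-restraining Btg1 had 94.2, 121, 80.3 and 75.8. These 3 were lower on both arrays labelled knockout by small margins, and none passed the test. In the order of Ap1m2, 21 of the 39 were higher on knockout 1 and heterozygous 2 than on both others and 2 lower (52.7% and 11.7% of all probe sets), and after quantile normalization 13 and 9 (28.4% and 24.9% of all).

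Upstream of the response, 11 of 19 listed ligands and receptors were kept, with 3 higher and 8 lower by label and none past the threshold. Erbb3, a receptor of the EGF receptor family, had 111, 163, 77.2 and 90.3, below on both knockout arrays (log2 difference -0.69, standard error 0.48). Il1b had 1.46, 2.06, 0.893 and 2.24, and the TNF receptor gene Tnfrsf1a had 37.1, 52.7, 45.3 and 36.1, with no division by label. Of 33 listed MAP kinase and serum response factor pathway genes, 25 were named in the table and 23 kept, 12 higher and 11 lower by label and none past the threshold. Map2k3, which activates p38, had 43.0, 73.0, 85.1 and 41.1, Map2k2, which activates ERK, had 35.95, 61.3, 63.95 and 42.1, the Ras activator gene Sos1 had 8.002, 11.3, 8.55 and 7.15, and the kinase gene Rps6ka5 had 5.53, 9.26, 3.88 and 5.09. In the order of Ap1m2, 20 of the 23 were higher on knockout 1 and heterozygous 2, against 52.7% of all probe sets, but after quantile normalization 5 were higher and 5 lower, against 28.4% and 24.9%.

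Heat shock genes are a second response to stress and handling, and 11 of 13 listed were measured and kept, 7 higher and 4 lower by label with none past the threshold. Hspa8, the constitutive HSP70 chaperone, had 282 and 415 on heterozygous 1 and 2, and 517 and 232 on knockout 1 and 2. Hspd1, a mitochondrial chaperonin, had 78.6, 152, 272 and 83.2. The probe set of the inducible Hspa1a, which has a near-identical copy in Hspa1b and is uncertain for that reason, had 6.78, 10.2, 11.0 and 2.38. In the order of Ap1m2, 10 of the 11 were higher on knockout 1 and heterozygous 2 and 1 was lower. The shares of all probe sets were 52.7% and 11.7%. After quantile normalization 9 were higher and 1 lower, beside 28.4% and 24.9% of all probe sets. No test was made of this list against the immediate early genes.

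**Figure D4:**
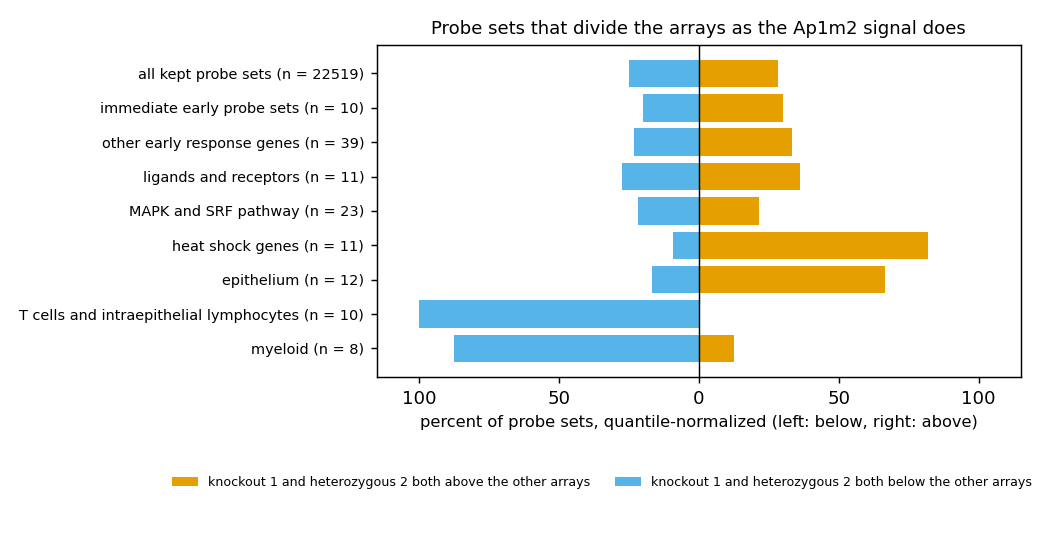
Percent of kept probe sets (horizontal axis, quantile-normalized values) that were higher (right, orange) or lower (left, blue) on both arrays of lower Ap1m2, knockout 1 and heterozygous 2, than on both others, for all probe sets, the immediate early probe sets and 7 gene lists. The immediate early bars (3 and 2 of 10) lie near those of all probe sets (28.4% and 24.9%), and the 10 T cell genes lie wholly to the left.

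Other cells in the isolates express immediate early genes too, and fewer cells of a type and less RNA per cell cannot be told apart in these bulk samples. Epithelial markers were strong, with all 12 listed genes kept and a summed signal of 4214 and 4882 on the heterozygous and 5593 and 3637 on the knockout arrays, replicate 1 first. Fabp1, the enterocyte fatty acid binding protein, had 707, 770, 910 and 583, Alpi 588, 540, 590 and 485, Vil1 296, 323, 263 and 262, and Krt18 76.8, 179, 305 and 75.8. T cell and intraepithelial lymphocyte markers were measured at all 10 genes and none was at 0. Their summed signal was 490, 98.3, 14.3 and 298 in the order heterozygous 1, heterozygous 2, knockout 1 and knockout 2. Each of the 10 was lower on both arrays of lower Ap1m2, before and after quantile normalization, beside 11.7% and 24.9% of all probe sets. Of the 12 epithelial markers, 9 were higher and 0 lower on that pair, beside 52.7% and 11.7% of all. After quantile normalization 8 of the 12 were higher and 2 lower, beside 28.4% and 24.9%. Egr1, Ier3 and Dusp1 were higher and Zfp36 lower on that pair in both views. The other members kept did not divide the arrays so in both, and the members' counts lay near the shares of all probe sets. Gzma had 244, 53.8, 5.79 and 149, Ccl5 93.2, 13.3, 2.01 and 61.8, and Klrd1 17.4, 3.09, 0.160 and 8.68. Myeloid markers, 8 of 9 kept, summed to 102, 38.7, 36.5 and 48.8, with Fcer1g at 8.33, 2.66, 0.107 and 4.92, Adgre1 at 4.84, 2.34, 1.30 and 2.68, Lyz2 at 42.0, 18.1, 20.8 and 15.6 and Csf1r at 22.7, 3.26, 3.89 and 8.19. Of the 8 myeloid markers kept, 6 were lower and 1 higher on both arrays of lower Ap1m2. After quantile normalization 7 were lower and 1 higher. The part of all these cells in the levels of the immediate early genes was not tested.

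Of the other markers, B and plasma cell genes (5 of 6 kept) summed to 622, 243, 274 and 245, with Jchain at 205, 34.9, 34.1 and 39.6, Igha at 413, 204, 237 and 199 and Cd79b at 1.25, 1.53, 2.18 and 1.83. Stromal, endothelial and muscle genes (9 of 12 kept) were dim at a sum of 26.7, 21.5, 31.3 and 29.8, and 4 of the 9 were higher and 5 lower by label (median -0.019). Without overlap between labels, 4 of the 9 were above and 0 below on the knockout arrays, beside 6.56% and 10.7% of all probe sets. Among the 4 were the smooth muscle genes Acta2 (5.91, 6.39, 9.66 and 10.1), Actg2 (0.952, 0.971, 1.92 and 2.58) and Myh11 (0.596, 0.602, 1.45 and 1.57). The unadjusted p by limma was 0.0418 for Actg2 and 0.0494 for Myh11, with none past the adjusted threshold. Both genes lay below the array median on the heterozygous arrays. Col3a1 had 5.28, 4.19, 6.08 and 3.52. Pancreatic acinar genes (5 of 8 kept) summed to 9.03, 28.9, 29.0 and 71.7, with Cpa1 at 0.079, 0.166, 0.089 and 8.88, Cpb1 at 0.054, 1.55, 0.569 and 6.34, Cela2a at 0.120, 3.48, 0.082 and 24.5 and Cela1 at 8.63, 21.8, 27.7 and 19.8. On the deposited values, Jun was the member that divided the arrays by label as these smooth muscle genes did, in the opposite direction. The part of the smooth muscle genes in that division was not tested.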

How the data were processed

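Total RNA of 4 epithelial isolates was labelled with biotin and read on 1-colour Affymetrix arrays. The authors deposited 1 intensity value per probe set and array, made with MAS5 per the submitters' processing notes (version and genome build not given in the sources used here); array medians of 0.996 to 0.998 show a rescaling that the labels do not state. GEO's annotation of the platform named 34945 probe sets for 1 gene, 932 for several and 9160 for none, and symbols were checked against RefSeq (GRCm38.p6). Names from several genes were not used, and 0 probe sets named a member beside another gene. Values were taken as log2(value + 0.321), the pseudocount being the 25th percentile of all values. Probe sets with a mean over the 4 arrays at or above the median of such means, 0.983, were kept (22519), and the labels were compared across all of them with limma 3.58.1 (R 4.3.3; linear fit, then eBayes using a trend on intensity); p-values were adjusted by Benjamini-Hochberg and called at 0.05. Tested on simulated data, the fit recovered the sizes of changes but called few of them, and none below the largest size simulated. An absence of calls therefore says little about whether a gene changed. No exact permutation test was made, since with 2 arrays a label its smallest two-sided p is 0.333. Members, lists and tests were chosen with earlier results of these data known. Every member was named, and each list gave its 2 genes of smallest p and 2 brightest (4 and 4 for other early genes). The 5 nearest profiles were also named. Other pseudocounts, filters, scalings, variance models, a block and each array left out were tried. The few arrays limit the precision.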

Additional observations from a re-analysis of the deposited data

How the results depend on the processing

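The count of 0 immediate early probe sets past the adjusted threshold by limma held in all 14 other fits, which changed the pseudocount, filter, scaling, variance model or block or left out 1 array. Of 130 recomputed member differences 120 kept their sign; the 10 that turned came with 1 array left out. Over these fits Egr1 ranged from -0.33 to 0.81, Dusp1 from -0.32 to 1.395, Ier3 from -0.68 to 0.54, Junb from -0.63 to 0.21, Fos from -0.57 to 0.14 and Atf3 from -0.25 to 0.21. The members' median, -0.14, ranged from -0.29 to 0.17 with 1 array left out and from -0.17 to -0.065 under the other settings. Over all probe sets, calls went from 0 to 1 with the brightest 25% only, and ranged from 0 to 240 with 1 array left out; the cause was not tested. With the replicate number as a block there were 0 calls over all probe sets (145 at an unadjusted p under 0.05) and 0 among members, whose median stayed at -0.14. Deviations of same-numbered arrays from their label means correlated at -0.51 over probe sets. Ap1m2 and the upper part of the signal distribution also set heterozygous 2 and knockout 1 apart from the others. The correlation therefore cannot decide whether the replicate number pairs the arrays in some other way, and Xist and Eif2s3y did go with that number. A block of crossed pairs, chosen after seeing the data, also gave 0 calls (1246 at an unadjusted p under 0.05). With 2 arrays a label and no detection calls, a lack of calls does not show a lack of change.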
